A study of Homo sapiens with 2 samples.

Results

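The 9 genes described here encode the human leukocyte antigen (HLA) class I heavy chains HLA-B, HLA-C, HLA-E and HLA-F, the light chain B2M, and the peptide loading proteins TAP1, TAP2, TAPBP and CALR. They were chosen by gene name in the deposited transcript annotation, and all 9 were found, with 27 of the 99493 listed transcripts and 9 of the 57110 gene entries, of which 17806 held counts. The cells were an equal mixture of 3 human ovarian cancer cell lines, SK-OV-3, COV504 and IGROV1, for which the labels name no treatment, captured as single cells and read as long nanopore reads on a PromethION. The pool gave 1 such library with 2462 cell barcodes. An Illumina library of the same pool, for which only a barcode list was used here, carries the same 2462 barcodes, so the libraries are 1 set of captured cells and not replicates.

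Class I molecules carry peptides from inside the cell to its surface, where CD8 T cells and natural killer cells read them. The proteasome cuts the peptides, the TAP1-TAP2 transporter moves them into the endoplasmic reticulum, and tapasin (TAPBP) and calreticulin (CALR) hold the empty heavy chain and B2M in place until a peptide binds. Interferon raises many of these genes together, and tumour cells are known to lower them.

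Since no label assigns a barcode to a line, barcodes with at least 1000 counts were placed in a class where 1 set of line marker genes held at least 75% of the counts of all the marker genes. The sets were ERBB2, NNMT, TSPAN1 and DHRS2, then RARRES2 and TMEM100, then FOLR1, CLDN3, DEFB1 and CXCL14. The first class held 648 barcodes, the RARRES2-high class 473 and the FOLR1-high class 765, together 1886 of the 2129 barcodes with enough counts. The first class is called SK-OV-3-like because SK-OV-3 carries an ERBB2 amplification and lacks CDKN2A. The amplicon neighbour STARD3 stood at 214 CPM (counts scaled by the class total) against 22.2 and 13.3 CPM in the RARRES2-high and FOLR1-high classes, and the neighbour GRB7 at 56.4 CPM against 2.66 and 28.8 CPM. CDKN2A had 1, 0 and 88 counts, so its loss does not set the SK-OV-3-like class apart from the RARRES2-high class. The other classes were not matched to IGROV1 or COV504. Class totals were 3442383, 3377992 and 4514999 counts, and median depths were 4953, 6262 and 5289 counts per barcode, in the order SK-OV-3-like, RARRES2-high and FOLR1-high, which is kept below. Genes of mitochondria and of ribosomal proteins took 14.8%, 18.1% and 33.6% of the counts. Immune, fibroblast and endothelial cells were looked for through 8 markers: CD3E, LYZ and DCN had 0 counts in every class, PTPRC at most 1 count, VWF at most 3 and PECAM1 at most 8. COL1A1 had 329, 79 and 15 counts, and CD68 was listed only in an entry joined with other genes. Each class is a part of 1 library, so no test between lines was possible: every interval below is an exact 95% interval that covers counting error only.

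The regions upstream of HLA-B, HLA-C, B2M and CALR are shown because the first 3 are the members with a pair of motifs known from class I promoters, and CALR, whose gene is no part of that family, stands beside them. Motif content was not set against the class differences, and HLA-F, TAP1, TAP2 and TAPBP lacked the pair as CALR did. They come from RefSeq (build GRCh38.p14), start 200 bases before the RefSeq gene start, run 5′ to 3′ on the gene's strand and stop before any annotated exon. Capitals mark the interferon regulatory factor motif AANNGAAA on either strand, the NF-kB type motif GGGGATT, and TGACG followed within 50 bases by ATTGG, the core letters of the X2 and Y boxes of the class I promoter.
HLA-B (chr6:31357189-31357379, minus strand): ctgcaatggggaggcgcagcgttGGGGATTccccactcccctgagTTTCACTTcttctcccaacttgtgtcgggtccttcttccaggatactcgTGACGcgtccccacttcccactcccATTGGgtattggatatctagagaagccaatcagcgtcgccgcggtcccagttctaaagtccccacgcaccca
HLA-C (chr6:31272131-31272292, minus strand): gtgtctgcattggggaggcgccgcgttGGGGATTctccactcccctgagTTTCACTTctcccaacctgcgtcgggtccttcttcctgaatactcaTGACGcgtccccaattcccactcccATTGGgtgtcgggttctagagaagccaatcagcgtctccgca
B2M (chr15:44711317-44711476, plus strand): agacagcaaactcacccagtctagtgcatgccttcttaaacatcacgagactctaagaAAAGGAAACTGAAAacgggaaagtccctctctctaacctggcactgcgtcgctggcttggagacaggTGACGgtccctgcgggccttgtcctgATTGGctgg
CALR (chr19:12938409-12938577, plus strand): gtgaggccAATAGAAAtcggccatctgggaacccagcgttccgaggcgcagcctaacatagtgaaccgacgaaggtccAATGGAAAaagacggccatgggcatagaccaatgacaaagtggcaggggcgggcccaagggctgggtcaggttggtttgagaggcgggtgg

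All motifs were searched on both strands in windows from 250 bases before to 50 after each RefSeq start, except the TGACG and ATTGG pair, which was searched on the gene's strand. Of the 9 members, 8 had a window, and HLA-E did not. AANNGAAA was present for 8 of these 8 members, CALR among them, and in 22.8% of the 35116 windows of all genes. B2M, TAP1, TAP2 and TAPBP each held a pair of matches that overlap by their end bases. GGGGATT was present for HLA-B, HLA-C and TAPBP, and in 3.55% of all windows. The TGACG and ATTGG pair was present for HLA-B, HLA-C and B2M, and in 0.698% of all windows. In HLA-B it began 106 bases before the start, in HLA-C 105 and in B2M 75. These are matches of letters and not measured binding.

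The FOLR1-high class had the lowest level of the 4 heavy chains summed: 1394 CPM (95% interval 1355 to 1434) in the SK-OV-3-like class, 870.3 CPM (839 to 902) in the RARRES2-high class and 354 CPM (337 to 372) in the FOLR1-high class. The 3 intervals did not overlap. Of the 9 members, 8 were at least 2-fold higher in the SK-OV-3-like than in the FOLR1-high class, against 25.9% of the 8145 gene entries with a mean of at least 10 CPM, and 0 were at least 2-fold lower, against 8.42%. In the RARRES2-high class 7 members were at least 2-fold higher than in the FOLR1-high class, against 21.8% of all entries, and 0 were lower, against 11.4%. Both counts use the same FOLR1-high barcodes. The same 7 members, all but HLA-C and CALR, were at least 2-fold lower in the FOLR1-high class than in both other classes, against 12.5% of all entries. The median log2 ratio of the members was 1.995 for SK-OV-3-like over FOLR1-high and 1.83 for RARRES2-high over FOLR1-high, beside 0.46 and 0.21 over all entries. With these shifts of all genes taken out, 6 members (HLA-B, HLA-E, HLA-F, B2M, TAP1 and TAP2) remained at least 2-fold higher in either class than in the FOLR1-high class. The share of all entries past 2-fold with the same shifts taken out was not computed. With mitochondrial and ribosomal protein genes, which took the largest share of counts in the FOLR1-high class, left out of the totals, 7 members were at least 2-fold higher in the SK-OV-3-like class than in the FOLR1-high class, against 16.5% of all entries (13.8% lower), and 6 were at least 2-fold higher in the RARRES2-high class, against 15.7% (18.0% lower). With median-ratio size factors in place of totals, 6 members were at least 2-fold higher in the SK-OV-3-like than in the FOLR1-high class, against 13.9% of all entries (15.1% lower). In the RARRES2-high class 6 members were at least 2-fold higher than in the FOLR1-high class, against 17.1% (14.7% lower). With these factors 6 members were at least 2-fold lower in the FOLR1-high class than in both other classes, against 8.03%.

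**Figure D1:**
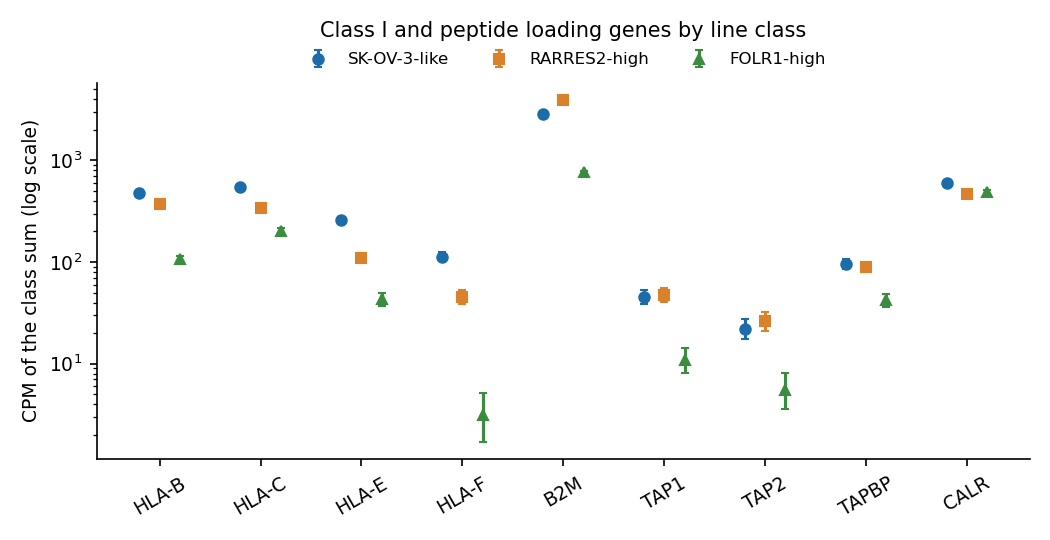
Level of each member in the 3 line classes, as CPM of the class sum on a log axis, with exact Poisson 95% intervals of the counts. The FOLR1-high class (triangles) is lowest for the 8 members other than CALR, whose RARRES2-high and FOLR1-high order is not resolved (469 and 493 CPM, reversed at 90% marker purity and with the mean of barcode CPM), with HLA-F at 3.10 CPM against 113 and 45.3 CPM.

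The classical heavy chains HLA-B (ENSG00000234745) and HLA-C (ENSG00000204525) present peptides to CD8 T cells and lie side by side on chromosome 6, on the minus strand, with their leading transcripts at chr6:31353872-31357187 and chr6:31268749-31272086 (GRCh38). HLA-B had 1641, 1272 and 479 counts, or 477 CPM (454 to 500), 377 CPM (356 to 398) and 106 CPM (96.8 to 116). It was 4.49-fold higher in the SK-OV-3-like (4.06 to 4.99) and 3.55-fold higher in the RARRES2-high class (3.19 to 3.95) than in the FOLR1-high class. The SK-OV-3-like and RARRES2-high classes differed 1.27-fold (1.18 to 1.36), and 1.10-fold relative to all entries. HLA-C had 1876, 1141 and 911 counts, or 545 CPM (521 to 570), 338 CPM (319 to 358) and 202 CPM (189 to 215). HLA-C kept the order of HLA-B with a smaller range: it was 2.70-fold higher in the SK-OV-3-like (2.49 to 2.93) and 1.67-fold higher in the RARRES2-high class (1.53 to 1.83) than in the FOLR1-high class. At least 1 HLA-C count was present in 85.8%, 78.0% and 61.2% of barcodes, and at least 1 HLA-B count in 74.4%, 74.0% and 37.3%.

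HLA-E (ENSG00000204592, chr6:30489467-30494205, plus strand) presents leader peptides of other class I chains to natural killer cell receptors. It had 894, 374 and 194 counts, or 260 CPM (243 to 277), 111 CPM (99.8 to 123) and 43.0 CPM (37.1 to 49.5). It was 6.04-fold higher in the SK-OV-3-like (5.17 to 7.10) and 2.58-fold higher in the RARRES2-high class (2.16 to 3.08) than in the FOLR1-high class. HLA-F (ENSG00000204642, plus strand, with nearly equal shares for ENST00000376861 at chr6:29722775-29726526 and ENST00000334668 at chr6:29723340-29726525), a non-classical chain that can reach the surface without a peptide, had 389, 153 and 14 counts, or 113 CPM (102 to 125), 45.3 CPM (38.4 to 53.1) and 3.10 CPM (1.70 to 5.20). The SK-OV-3-like class stood 36.4-fold (21.5 to 67.3) and the RARRES2-high class 14.6-fold (8.44 to 27.4) above the FOLR1-high class. The 14 HLA-F counts of the FOLR1-high class lay in 14 barcodes, 1.83% of that class (1.00 to 3.05%), against 40.7% of SK-OV-3-like and 24.1% of RARRES2-high barcodes. RNA that spills between barcodes was gauged by genes of 1 class that the class rule did not use. RGCC, at 70.2 CPM in the RARRES2-high class, had 0 counts in the FOLR1-high class, with an exact upper limit of 0.817 CPM. KRT24, at 90.4 CPM in the FOLR1-high class, had 1 and 0 counts in the other classes. ANKRD1, at 114 CPM in the RARRES2-high class, had 4.43 CPM in the FOLR1-high class, from 20 counts in 13 barcodes. The part of spill-over in the 14 HLA-F counts was not tested. HLA-E and HLA-F were the 2 members at least 2-fold higher in the SK-OV-3-like than in the RARRES2-high class, at 2.35-fold (2.08 to 2.65) and 2.50-fold (2.06 to 3.03), against 20.3% of all entries, and 0 members were at least 2-fold lower, against 12.4%. With median-ratio size factors HLA-E fell to 1.97-fold there, under the threshold.

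B2M (ENSG00000166710, leading transcript chr15:44711477-44718877, plus strand), the light chain that every class I heavy chain needs for a stable fold, had another order of classes. It had 9786, 13157 and 3465 counts, or 2843 CPM (2787 to 2900), 3895 CPM (3829 to 3962) and 767 CPM (742 to 793). B2M was thus highest in the RARRES2-high class, where the heavy chains were intermediate. It was 3.70-fold higher in the SK-OV-3-like (3.56 to 3.85) and 5.08-fold higher in the RARRES2-high class (4.89 to 5.27) than in the FOLR1-high class, and 0.730-fold in the SK-OV-3-like relative to the RARRES2-high class (0.711 to 0.749). B2M had the highest count of the members and could be read barcode by barcode. After each barcode with at least 2000 counts was thinned to 2000 (606, 443 and 733 barcodes, leaving out 42, 30 and 32), the median B2M count was 6, 7 and 1, with quartiles of 3 to 8, 5 to 10 and 0 to 2. B2M was at 0 in 1.32%, 0.226% and 27.6% of these barcodes; before thinning, at least 1 count was present in 99.7%, 100% and 92.0% of barcodes. Of the FOLR1-high barcodes, 14 of 733 (1.91%) reached the SK-OV-3-like median of 6 counts. Of the SK-OV-3-like barcodes, 40 (6.60%) were at or below the FOLR1-high median of 1 count, and of the RARRES2-high barcodes 5 (1.13%). The low B2M level of the FOLR1-high class was thus spread over its barcodes, with a small overlap between classes.

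**Figure D2:**
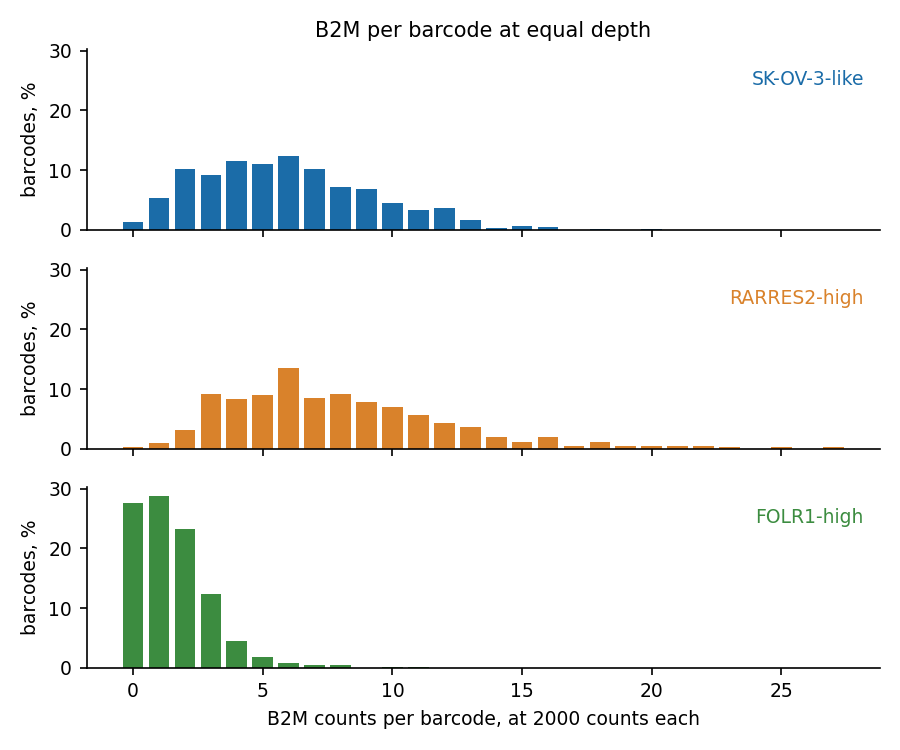
B2M counts per barcode after thinning to 2000 counts each, as a percentage of the barcodes of each class. The FOLR1-high class has its median at 1 count and 27.6% of barcodes at 0, and the other classes have medians of 6 and 7 counts.

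Both subunits of the peptide transporter had nearly equal levels in the SK-OV-3-like and RARRES2-high classes and were low in the FOLR1-high class. TAP1 (ENSG00000168394, chr6:32845209-32853978, minus strand) had 156, 160 and 49 counts, or 45.3 CPM (38.5 to 53.0), 47.4 CPM (40.3 to 55.3) and 10.9 CPM (8.03 to 14.4). It was 4.18-fold (3.01 to 5.88) and 4.36-fold (3.15 to 6.14) above the FOLR1-high class. TAP2 (ENSG00000204267, leading transcript chr6:32825415-32838780, minus strand) is listed in an entry joined with HLA-DOB and AL669918.1, and its own transcripts held 99%, 99.4% and 97% of that entry's counts. The entry had 76, 88 and 25 counts, or 22.1 CPM (17.4 to 27.6), 26.1 CPM (20.9 to 32.1) and 5.54 CPM (3.58 to 8.17). It was 3.99-fold (2.51 to 6.54) and 4.71-fold (2.99 to 7.66) above the FOLR1-high class. Between the SK-OV-3-like and RARRES2-high classes, the ratio was 0.957 for TAP1 (0.763 to 1.20) and 0.848 for TAP2 (0.615 to 1.17), so at these counts neither order could be told. Tapasin, TAPBP (ENSG00000231925, leading transcript chr6:33299694-33314387, minus strand), which bridges the transporter and the heavy chain, had 328, 303 and 189 counts, or 95.3 CPM (85.3 to 106), 89.7 CPM (79.9 to 100.4) and 41.9 CPM (36.1 to 48.3). Its ratios to the FOLR1-high class were 2.28 (1.90 to 2.74) and 2.14 (1.78 to 2.58), or 1.65 and 1.85 relative to all entries, which is under 2-fold. CALR (ENSG00000179218, chr19:12938607-12944489, plus strand), a chaperone of many glycoproteins besides class I, had 2056, 1585 and 2224 counts, or 597 CPM (572 to 624), 469 CPM (446 to 493) and 493 CPM (472 to 514). Its ratio to the FOLR1-high class was 1.21 in the SK-OV-3-like class (1.14 to 1.29), which turns to 0.882 relative to all entries, and 0.953 in the RARRES2-high class (0.893 to 1.02). The order of the RARRES2-high and FOLR1-high classes for CALR was not resolved: the ratio turned to 1.04 with classes at 90% of the marker counts and to 1.03 with the mean of barcode CPM.

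Most other genes of the loading complex differed less between the classes than the transporter did. Of 6 further genes of peptide loading and trimming, 4 passed the minimum of 10 CPM, and 1 of these, ERAP2, was at least 2-fold higher in both other classes than in the FOLR1-high class, against 12.5% of all entries. ERAP2, an endoplasmic reticulum aminopeptidase that trims peptides, stood at 52.3, 60.1 and 16.8 CPM. The chaperones PDIA3, CANX and HSPA5 did not pass 2-fold, with ratios to the FOLR1-high class of 1.07 and 1.27 for PDIA3, 1.48 and 1.33 for CANX, and 1.15 and 1.13 for HSPA5. Of 5 genes of the immunoproteasome and its activator, 2 (PSMB8 and PSMB9) were at least 2-fold lower in the FOLR1-high than in both other classes, against 12.5% of all entries. PSMB8, a catalytic subunit that replaces its constitutive counterpart after interferon, stood at 229.8 CPM (214 to 246), 165 CPM (152 to 179) and 4.21 CPM (2.53 to 6.57), from 791, 557 and 19 counts. PSMB9, also catalytic, stood at 84.0 CPM (74.6 to 94.2), 181 CPM (167 to 196) and 6.65 CPM (4.48 to 9.49). The third catalytic subunit PSMB10, counted in an entry joined with AC040162.1, stood at 70.0, 49.7 and 29.7 CPM. The activator subunits PSME1 and PSME2 were not 2-fold lower in the FOLR1-high class, at 183, 145 and 189.8 CPM for PSME1 and 129, 276 and 199 CPM for PSME2.

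Of 7 regulators of class I transcription, 5 passed the minimum of 10 CPM. In the SK-OV-3-like class 3 were at least 2-fold higher than in the FOLR1-high class and 0 lower, against 25.9% and 8.42% of all entries. In the RARRES2-high class 2 were higher and 0 lower, against 21.8% and 11.4%. IRF2 (29.6, 18.95 and 18.4 CPM) and RFX5 (17.7, 10.1 and 17.1 CPM) were not among them. IRF1, a transcription factor induced by interferon, was at least 2-fold higher in both other classes than in the FOLR1-high class. It stood at 30.5 CPM (24.9 to 36.9), 55.1 CPM (47.4 to 63.6) and 12.4 CPM (9.37 to 16.1). RFXANK, a subunit of the complex that binds the X box, stood at 90.6, 21.0 and 24.1 CPM, 4.31-fold (3.32 to 5.66) higher in the SK-OV-3-like than in the RARRES2-high class. NLRC5, the class I transactivator, had 15, 13 and 5 counts and was under the minimum of 10 CPM, at a mean of 3.10 CPM. Its ratio to the FOLR1-high class was 3.94 (1.36 to 13.8) in the SK-OV-3-like and 3.48 (1.16 to 12.5) in the RARRES2-high class, and those 2 classes could not be ordered, at 1.13 (0.503 to 2.59).

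Interferon-induced genes in general did not have the class order of the heavy chains. Of 12 such genes, 8 were at least 2-fold higher in the RARRES2-high than in the FOLR1-high class and 1 (IFITM2) lower, against 21.8% and 11.4% of all entries. In the SK-OV-3-like class 8 were at least 2-fold lower than in the RARRES2-high class and 1 (IFITM2) higher, against 12.4% and 20.3%. ISG15, a ubiquitin-like modifier, stood at 70.6, 1028 and 167 CPM, and IFI27 at 76.1, 1477 and 8.42 CPM. Between the SK-OV-3-like and FOLR1-high classes, 3 of the 12 genes passed 2-fold in each direction. IFI27, MX1 and PSMB8 were at least 2-fold higher in the SK-OV-3-like class, against 25.9% of all entries. ISG15, IFIT1 and IFITM1 were at least 2-fold lower there, against 8.42%. The median log2 ratio over the 12 genes was 0.25, beside 0.46 over all entries. PSMB8 is part of this list as well as of the immunoproteasome list. The class II genes were close to absent: HLA-DRA, HLA-DRB1, HLA-DPA1, HLA-DPB1, HLA-DQA1 and HLA-DQB1 had at most 10 counts in any class. CD74, the invariant chain of class II, stood at 34.6 CPM in the RARRES2-high class, against 0.290 CPM (1 count) and 0.886 CPM (4 counts). HLA-DMA, the class II peptide exchanger, was highest in the FOLR1-high class, at 6.97, 1.18 and 32.6 CPM.

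**Figure D3:**
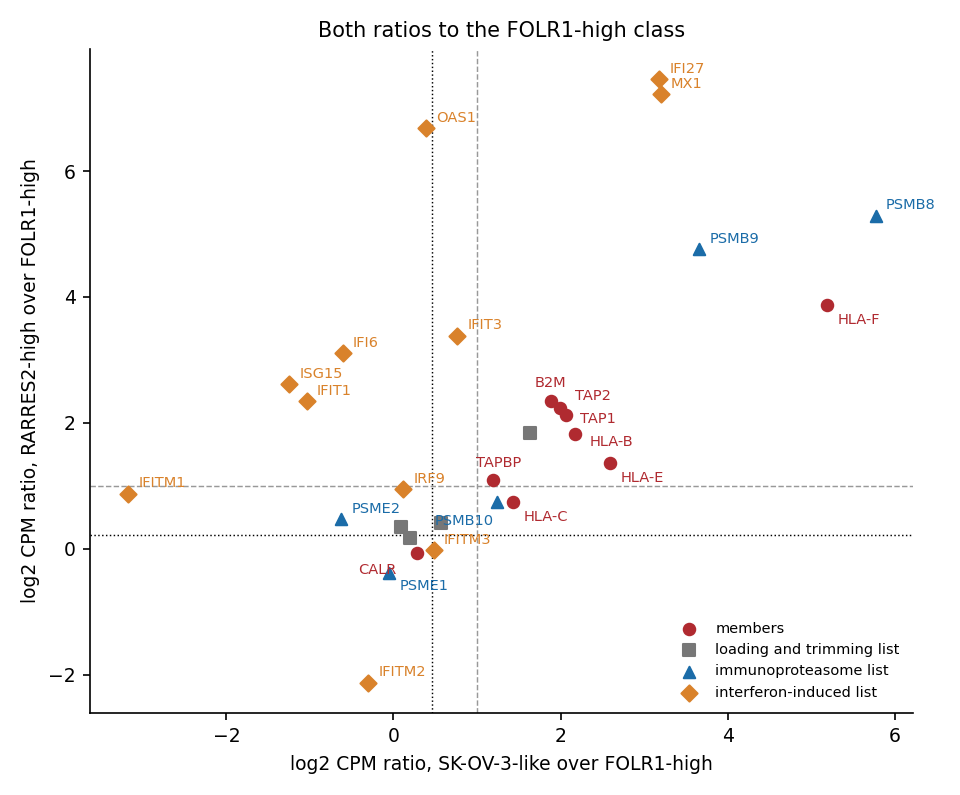
Log2 CPM ratio to the FOLR1-high class in the SK-OV-3-like class (x) and the RARRES2-high class (y) for the 9 members and the genes of 3 lists with a mean of at least 10 CPM. Both axes share the FOLR1-high counts; dotted lines mark the median of all entries (0.46 and 0.21), dashed lines 2-fold. OAS1 and MX1 rest on 2 FOLR1-high counts each. Of the members, 7 lie beyond both dashed lines, and CALR lies near the dotted lines.

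The members on chromosome 6 span chr6:29722775-33314387, 3.59 Mb from HLA-F to TAPBP, and this stretch was read to see whether the neighbouring genes had the same pattern. Of the 66 expressed entries there, 7 were members, 3 were genes of the lists (PSMB8, PSMB9 and HLA-DMA) and 56 were others. Of these 56 others, 5 (8.93%) were at least 2-fold lower in the FOLR1-high class than in both other classes, against 12.5% of all entries, with PPP1R18, FLOT1, IER3 and HSPA1A among them. The 56 others had a median log2 ratio of 0.16 for SK-OV-3-like over FOLR1-high and -0.43 for RARRES2-high over FOLR1-high, both below the medians of all entries. B2M and CALR lie on chromosomes 15 and 19, and B2M had the low FOLR1-high level of the chromosome 6 members.

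**Figure D4:**
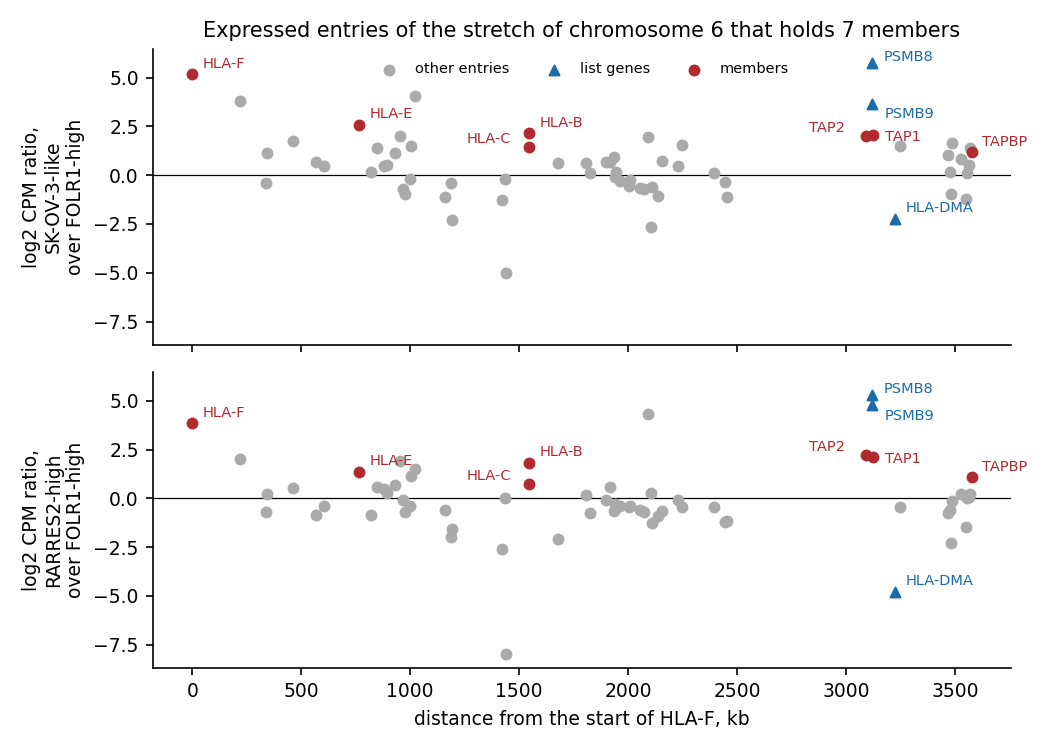
Log2 CPM ratio of every entry with a mean of at least 10 CPM against its distance from the start of HLA-F, for SK-OV-3-like (top) and RARRES2-high (bottom) over FOLR1-high. Members and the genes of the lists are coloured and named. The members lie above 0 in both panels, and the other entries scatter on both sides of 0, with medians of 0.16 and -0.43.

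Inside the FOLR1-high class, barcodes where CXCL14 held at least 75% of the CXCL14 and DEFB1 counts (257 barcodes) were set against those where it held at most 25% (189 barcodes). HLA-B and B2M were lower in the first set. HLA-B stood at 57.6 CPM (45.6 to 71.6) with mostly CXCL14 and at 138 CPM (119 to 161) with mostly DEFB1, a ratio of 0.416 (0.315 to 0.545). B2M stood at 603 CPM (563 to 645) and 908 CPM (856 to 963), a ratio of 0.664 (0.606 to 0.726). HLA-C stood at 173 and 232 CPM, a ratio of 0.748 (0.628 to 0.890). HLA-E did not follow: it stood at 43.9 and 28.8 CPM, a ratio of 1.53 with an interval of 0.994 to 2.37. CALR was slightly higher in the CXCL14 set, with a ratio of 1.16 (1.04 to 1.29). For HLA-F, TAP1, TAP2 and TAPBP the intervals of the ratio included 1. In both sets HLA-B and B2M remained below their levels in the RARRES2-high and SK-OV-3-like classes.

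**Figure D5:**
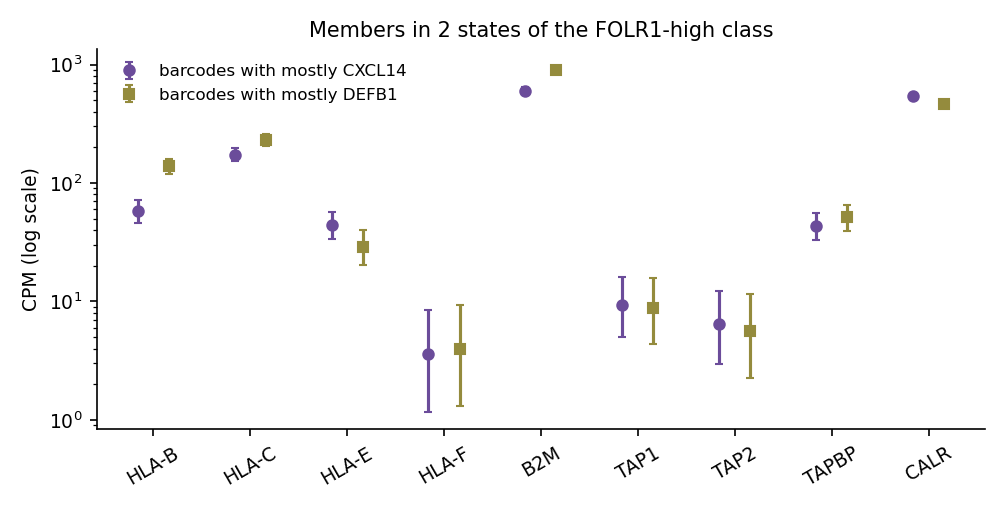
CPM of each member (log axis) in FOLR1-high barcodes with mostly CXCL14 (circles, 257 barcodes) and mostly DEFB1 (squares, 189 barcodes), with exact Poisson 95% intervals. HLA-B stands at 57.6 against 138 CPM and B2M at 603 against 908 CPM.

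Within a class few members varied together, and those weakly: of the 36 pairs of members, HLA-B with HLA-C, HLA-B with B2M and HLA-C with B2M exceeded a correlation of 0.1 in 2 classes, and 0 pairs did so in all 3. Over barcodes thinned to 2000 counts, the Pearson correlation of HLA-B with B2M was 0.30, 0.24 and 0.08 in the 3 classes, and that of HLA-B with HLA-C was 0.23, 0.23 and 0.02. The 26 pairs that involve TAP1, TAP2, TAPBP or CALR had medians of 0.02, 0.02 and -0.01. The variance of the thinned B2M count was 1.91, 2.30 and 1.45 times its mean, where pure counting noise gives a ratio near 1. Among 985 entries with a mean thinned count of at least 0.2 in every class, those most like the sum of HLA-B, HLA-C, HLA-E, HLA-F and B2M over 1782 barcodes included IFITM3, FTH1, CYBA and SLC3A2, with mean correlations of 0.19, 0.15, 0.15 and 0.15. The 99th percentile of all entries was 0.13. FTH1 stood at -0.04, 0.24 and 0.26 in the 3 classes, so it did not follow the sum in the SK-OV-3-like class. The barcodes share 1 library, and correlations of this size in sparse counts are no more than a description. The 208 deep barcodes with mixed markers, which belong to no class, had B2M at 3194 CPM and HLA-B at 393 CPM, within the range of the classes.

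The long reads were assigned to transcripts, and for 4 of the 9 members the class comparison with the FOLR1-high class could be made at transcript level, in entries of a single gene with at least 2 listed transcripts and at least 50 counts in both classes (HLA-B, HLA-C, B2M and TAPBP); HLA-F joined them between the SK-OV-3-like and RARRES2-high classes, and the joined TAP2 entry was left out. None of these members, 0 of 4, 0 of 4 and 0 of 5, had a transcript share that differed by at least 20 percentage points, against 2.21% of all such entries for SK-OV-3-like and FOLR1-high, 3.26% for RARRES2-high and FOLR1-high, and 2.45% for SK-OV-3-like and RARRES2-high. The largest difference was 2.55 points, in HLA-C. HLA-B was carried by ENST00000412585 at 99.9%, 99.8% and 99.7%, B2M by ENST00000558401 at 99.8%, 99.7% and 99.5%, and TAPBP by ENST00000434618 at 98.5%, 98.4% and 99.4%. For B2M, matrix entries that were whole numbers held 7.92%, 2.29% and 35.4% of the counts of ENST00000558401. An entry that is not whole holds at least 1 read split between transcripts, so the share of reads that were split was not measured. HLA-E, TAP1 and CALR have 1 listed transcript.

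HLA-C had a minor transcript, ENST00000383329, at 2.33% (1.69 to 3.12%), 4.88% (3.71 to 6.30%) and 4.72% (3.44 to 6.31%) of its counts, which differs from the leading ENST00000376228 by a longer exon 6. The exon is shown because it is the coding difference that the reads had to resolve. It covers chr6:31269493-31269543 in the minor and chr6:31269493-31269525 in the leading transcript on the minus strand, and capitals mark the 18 added coding bases (chr6:31269526-31269543), from the GENCODE release 29 transcripts.
HLA-C exon 6 in ENST00000383329: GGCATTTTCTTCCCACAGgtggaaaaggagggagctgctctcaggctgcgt
HLA-C exon 6 in ENST00000376228: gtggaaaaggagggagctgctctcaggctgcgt

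The minor share was lowest in the SK-OV-3-like class, but this order depended on matrix entries that are not whole numbers. With only whole matrix entries counted, the leading ENST00000376228 held 97.5%, 97.9% and 97.8%, and the SK-OV-3-like class no longer had the lowest minor share. Of the counts of ENST00000383329, 59.5%, 18.0% and 27.9% lay in entries that were whole numbers. The rest lay in entries with at least 1 read split with another transcript. For HLA-F, ENST00000376861 and ENST00000334668 each held 48.7% of the counts in the SK-OV-3-like class, and in 382 of the 383 barcodes with either (99.7%) their values were equal to within 1e-06. These transcripts differ by a first noncoding exon of 226 bases (chr6:29722775-29723000), so the reads counted for HLA-F were divided evenly and do not tell the 2 starts apart.

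HLA-B and HLA-C are among the most variable human genes, and the lines' own alleles are not in the sources used here. In the reference transcripts the coding sequence of HLA-B is 91.5% identical to that of HLA-C, 85.6% to HLA-E and 82.7% to HLA-F. HLA-C is 85.0% identical to HLA-E and 81.7% to HLA-F, and HLA-E 80.6% to HLA-F. A read from an allele far from the reference may be assigned to another class I gene or lost, so the split of counts among the heavy chains is uncertain, and the part of allele mismatch in their differences between classes was not tested.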

How the data were processed

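The authors deposited estimated counts for each transcript in each barcode of the PromethION library, made with the package named in the series' design text. The build is GRCh38, and Cell Ranger 6.0.1 is named, per the submitters' processing notes. The aligner, package version, annotation release and UMI treatment were not given in the sources used here. Transcripts were summed to gene entries as the annotation lists them, then over the barcodes of each class, and scaled to CPM by the class total. Ratios carry exact conditional binomial intervals, CPM exact Poisson and shares Clopper-Pearson intervals, at the 95% level. There is 1 library, so no p-value was computed. All 9 members, the genes of the lists past 2-fold and the 5 entries most correlated with the class I sum were to be named; 2 of these genes are not reported here. The members and lists were chosen with earlier results of these data known. The ratio rule was tested on simulated counts. Exons and transcripts came from GENCODE release 29. Python 3.11.15, numpy 2.4.6, scipy 1.17.1, pandas 2.3.3 and scanpy 1.11.5 were used; Scrublet doublets (77 barcodes, 3.13%) were left out only as an alternative, since they were kept in the values of the report. The alternatives changed the purity, depth, marker minimum, scaling, filter, fold, share and transcript rules.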

Additional observations from a re-analysis of the deposited data

How the results depend on the processing

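No paired analysis was possible because counts of 1 library were analysed here. The counts of members past 2-fold or past 20 points, the levels, ratios and transcript shares were recomputed under the alternatives. Of 101 recomputed counts of members, 99 stayed within 1.5 times the reported count. Among the 99 are the counts of members lower than in FOLR1-high, or lower in SK-OV-3-like than in RARRES2-high. They were 0 as reported and 0 in every alternative, and a stricter rule could not have raised them. None of the recomputed ratios that were past 2-fold changed direction. The 2 counts that moved concern the members at least 2-fold higher in the SK-OV-3-like than in the RARRES2-high class. These were 2 as reported, 1 with median-ratio size factors, where HLA-E was at 1.97-fold, and 0 at 3-fold. Of 189 ratios 151, of 189 levels 146 and of 135 transcript shares 124 stayed inside the counting interval of the reported value. Median-ratio size factors moved the ratios of SK-OV-3-like over FOLR1-high: that of HLA-C became 1.99 and that of TAPBP 1.68, so 6 members remained past 2-fold. With the total taken without mitochondrial and ribosomal protein genes, 7 members were past 2-fold in that comparison (16.5% of all entries) and 6 in RARRES2-high over FOLR1-high (15.7%). That total also raised the FOLR1-high levels, as for HLA-B from 106 to 159.9 CPM and for B2M from 767 to 1157 CPM. With only whole matrix entries, the leading HLA-F share in the FOLR1-high class went from 46.4% to 0%. Leaving out entries of several genes dropped TAP2. HLA-F, with 14 counts in the FOLR1-high class, and TAP2, with 25, were limited by depth. With 1 library, differences between captures or cultures were not measured.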
